A study of Mus musculus with 2 samples.

Results

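*Cxcl1*, *Cxcl2*, *Cxcl3*, *Cxcl5* and *Ppbp*, which encode CXC chemokines that attract neutrophils, and *Cxcr2*, which encodes their shared receptor, were followed across the macrophage, neutrophil, fibroblast and tumour cells of CT26 tumours. The 6 genes were taken by symbol, and all 6 were found among the 33696 genes listed in the count matrices. The tumours grew under the skin of male BALB/c mice aged 6 to 8 weeks from CT26 cells, an established line of mouse colon carcinoma. One library came from untreated mice (UT) and one from mice given BUP-Gel (BUP), a hydrogel carrying the local anaesthetic bupivacaine at 40 mg/kg. Each library pooled the live sorted cells of 3 tumours, with CD45+ immune cells and CD45- cells mixed at 4 to 1 by the sample labels and at 3 to 1 by the study's methods. Counts are unique molecular identifiers (UMIs), where a UMI stands for 1 captured RNA molecule read from its 5′ end, so a count does not grow with transcript length. Whether capture was alike for different genes was not tested, so comparisons between genes are of counted UMIs. With 1 library a group there was no replicate and no test between UT and BUP. All 95% intervals therefore describe counting error alone and say nothing of variation between animals or preparations.

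These chemokines carry a short glutamate-leucine-arginine stretch before their first cysteines, which lets them bind CXCR2 on neutrophils and draw the cells out of blood towards their source. *Cxcl1*, *Cxcl2* and *Cxcl3* are rapid response genes that macrophages and other cells switch on after signals through NF-kappaB, such as interleukin-1, TNF or bacterial products. *Cxcl5* is known best from epithelial and stromal cells. *Ppbp* encodes pro-platelet basic protein, a chemokine precursor stored in platelets.

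The 5 ligand genes lie in 1 cluster on mouse chromosome 5, all on the plus strand of GRCm39: *Cxcl5* (90907186 to 90909483), *Ppbp* (90916371 to 90917930), *Cxcl3* (90933962 to 90937459), *Cxcl1* (91039094 to 91040974) and *Cxcl2* (91051730 to 91053797). *Pf4* and *Cxcl15*, relatives that were not among the members, lie between *Ppbp* and *Cxcl1*. *Cxcr2* lies on chromosome 1 (74193150 to 74200405). The RefSeq promoter table, built on GRCm38.p6, held an entry for 5 of the 6 members and none for *Cxcl5*. The 120 bases before the annotated start of the 3 ligands that were abundant in these tumours are shown because they share a layout, with capitals marking GGAATTTCC, a motif of the NF-kappaB type, and ATAAAAGG, a motif of the TATA type (GRCm38.p6, plus strand, chr5:90891125-90891244, chr5:90903779-90903898 and chr5:90785981-90786100).
Cxcl1: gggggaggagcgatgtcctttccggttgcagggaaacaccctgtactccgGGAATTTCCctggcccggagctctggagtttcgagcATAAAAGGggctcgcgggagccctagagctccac
Cxcl2: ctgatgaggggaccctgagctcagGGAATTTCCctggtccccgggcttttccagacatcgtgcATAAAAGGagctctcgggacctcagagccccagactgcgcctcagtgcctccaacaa
Cxcl3: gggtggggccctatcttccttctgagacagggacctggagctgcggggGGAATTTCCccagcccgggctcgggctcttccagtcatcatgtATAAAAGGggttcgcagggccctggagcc

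The NF-kappaB type motif began at -70 in *Cxcl1*, -96 in *Cxcl2* and -72 in *Cxcl3*, counted from the annotated start, and the TATA type motif at -34, -57 and -29. Both motifs were chosen after these sequences had been read, and were searched on both strands. The first was in 104 of 32851 promoter windows of the table (0.317%), and the second in 577 (1.76%). Those windows ran from 250 bases before to 50 bases after the annotated start, and so were longer than the 120 bases shown. In the 120 bases before *Ppbp* the second motif was on the other strand, at -87, and the first was not found. Neither was found in the 120 bases before *Cxcr2*. A match of letters is a description and not a bound site.

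After barcodes with at least 20% mitochondrial UMIs were left out, 7163 UT and 6776 BUP cells remained, from libraries of 83228442 and 89918925 UMIs. The libraries shared 68 of the kept cell barcodes. Cells were clustered without the 6 members and without 48 related genes, so that the members did not define the clusters, and clusters were named from marker genes. There were 4 macrophage-like clusters (2819 UT and 1417 BUP cells). One was led by *Thbs1* and *F10* beside *Cxcl3* itself (1222 and 794 cells), another by the complement genes *C1qa*, *C1qb* and *C1qc* (1161 and 492 cells), one shared the C1q genes and was cycling (242 and 59 cells), and one was led by interferon response genes (194 and 72 cells). A neutrophil-like cluster held 622 and 424 cells, all 12 neutrophil markers were detected in it, and *S100a9* stood at 41560.2 and 64540.0 counts per 1000000 UMIs of the cluster (CPM). A further cluster mixed neutrophil and macrophage markers (123 and 116 cells), and 11.7% of its cells were among the 6% with the highest doublet scores, against 0.382% of neutrophil-like cells.

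Both tumour-like clusters, led by *Ogn* and *Aspn* (505 and 1515 cells) and by *Nppb* and *Krt20* (447 and 695 cells), had 7 of 9 tumour markers but lacked the epithelial keratins *Krt7* and *Krt19* (0 to 3 UMIs). That list holds *Ogn*, *Aspn*, *Nppb*, *Krt20* and *Esm1*, which are among the leading genes of these clusters. Its detection is therefore no independent support for the name of these clusters. *Krt8* stood at 4.78 and 0.498 CPM there. The 4 Y-linked genes of the male host summed to 4.59 and 3.47 CPM in them, against 125 and 126 CPM in macrophage-like cells. The fibroblast-like cluster had all 9 fibroblast markers, with *Col3a1* at 15224 and 8037 CPM, but only 15 UT and 64 BUP cells. These 9 markers summed to 45871 and 27186 CPM there. All 9 were also detected in the tumour-like cells, at a sum of 1505 and 1471 CPM. That was above the sum of the tumour list in the tumour-like cells (868 and 670 CPM), so their name is less sure than that of the other classes. CD8 T-like cells (325 and 499 cells), which are not known as a source of these ligands, served as the background for ligand counts, and tumour-like cells as that for *Cxcr2*.

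*Cxcr2* was a gene of neutrophils in both libraries. The neutrophil-like cluster held 707 CPM in UT (95% interval 663 to 753) and 745 CPM in BUP (695 to 798). On the log2 scale BUP over UT gave 0.08 (-0.06 to 0.21), so no difference was detectable at this depth. The mixed cluster came next, with 229.8 CPM (UT) and 265 CPM (BUP). Mast-like cells had 73.2 and 71.5 CPM from 6 and 5 UMIs, and their intervals overlapped with those of the interferon-led macrophage-like cells (33.3 and 39.0 CPM). Fibroblast-like cells had 0 UMIs in both libraries, and tumour-like cells 2.17 and 1.07 CPM.

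Not every neutrophil-like cell showed the receptor transcript. These cells were shallow, with medians of 1882 UMIs in UT and 2128 in BUP, and how many of those without a UMI lack the transcript was not tested. A *Cxcr2* UMI was present in 62.4% of UT and 68.6% of BUP neutrophil-like cells as sequenced. After random thinning of every cell to 1000 UMIs, which left out 82 UT and 48 BUP cells below that depth, the shares were 46.5% (42.2% to 50.8%) and 48.1% (43.0% to 53.3%), over intervals that overlap. In tumour-like cells, at medians of 17908.5 and 16927 UMIs, the unthinned shares were 2.21% and 0.995%, and the thinned ones 0 of 941 cells (exact 95% interval up to 0.391%) and 0.0454%. The shares in neutrophil-like cells were thus far above that background at any depth used.

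*Cxcl2* (also known as MIP-2) was the most abundant member, and as a share of UMIs the neutrophils that carry its receptor held the highest level of it. It made up 23733 CPM of the neutrophil-like cluster in UT (23475 to 23993) and 25999 CPM in BUP (25698 to 26302), a log2 ratio of 0.13 (0.11 to 0.15). Within the cluster the median cell had 16436 CPM (UT) and 20901.5 CPM (BUP), and the 10th and 90th percentile cells were at 869 and 50953 CPM in UT and at 5416 and 53819.7 CPM in BUP. The spread between cells of 1 library was therefore much wider than the gap between the libraries. A *Cxcl2* UMI was found in 92.9% of UT and 96.2% of BUP neutrophil-like cells, and in 93.1% and 96.5% after thinning to 1000 UMIs. In CD8 T-like cells, at medians of 6311 and 5754 UMIs, the shares were 16% and 11.2%, and 7.19% and 4.44% after thinning. Counted per cell, *Thbs1* and *F10* macrophage-like cells held more *Cxcl2* than neutrophil-like cells. Their 1222 UT and 794 BUP cells held 117373 and 107482 UMIs of it, at median depths of 7546.5 and 7964 UMIs. The 622 and 424 neutrophil-like cells held 32329 and 28515.

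The order of *Cxcl2* levels below the neutrophils was the same in both libraries for the leading clusters, with intervals that did not overlap. The mixed cluster had 15394 and 16622 CPM, the *Thbs1* and *F10* macrophage-like cluster 11664 and 14897 CPM, the interferon-led one 8047 and 10898.5 CPM, and the monocyte-like cluster 6307 and 8269 CPM. C1q macrophage-like cells were lower, at 3008 and 5524 CPM, and did not differ beyond their interval from the small pDC-like cluster (3080.0 and 5606 CPM). Fibroblast-like cells were at 27.4 and 70.8 CPM and both tumour-like clusters between 96.3 and 342 CPM. CD8 T-like cells had 363 and 175 CPM. As CPM, the tumour-like and fibroblast-like levels of *Cxcl2* thus did not rise above the background in UT. In BUP the level of the *Ogn* and *Aspn* tumour-like cells alone among them did, at 284 CPM. CD8 T-like cells were shallower, and counted per cell both tumour-like clusters held more than they did. In UT, 325 CD8 T-like cells held 854 UMIs, 505 *Ogn* and *Aspn* cells 2464 and 447 *Nppb* and *Krt20* cells 2045. In BUP, 499, 1515 and 695 such cells held 564, 6368 and 1900 UMIs. Fibroblast-like cells held 8 UMIs in 15 UT cells and 101 in 64 BUP cells.

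**Figure D1:**
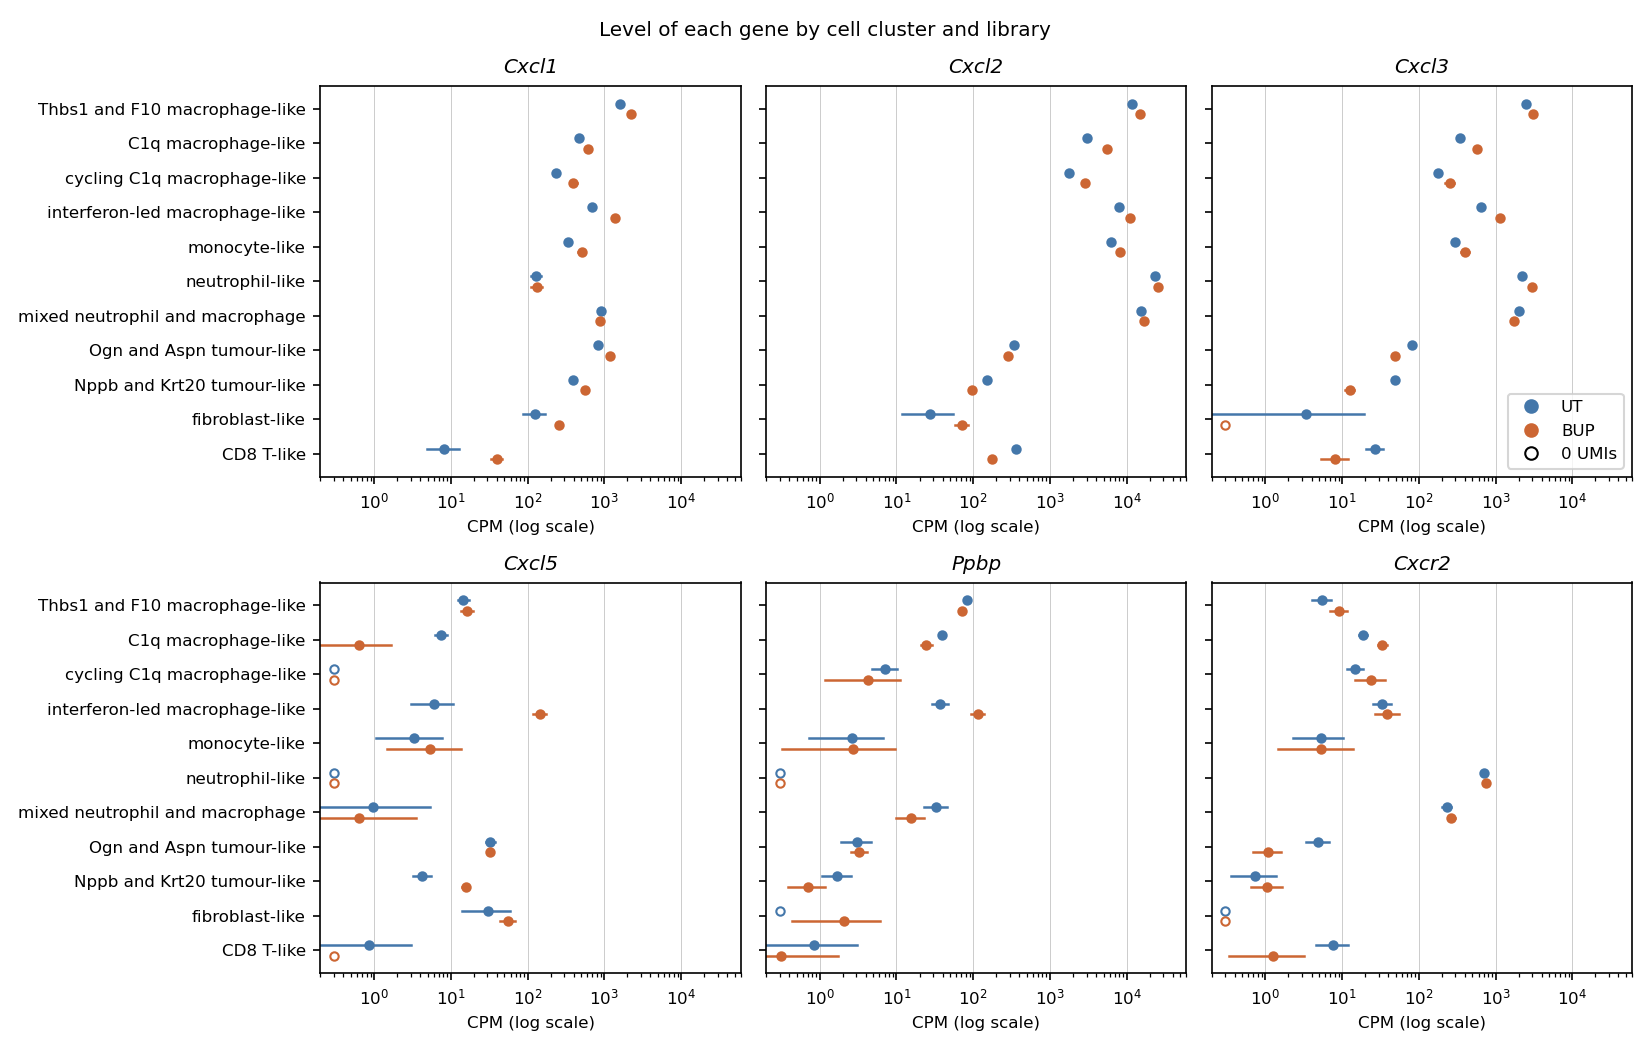
Level of each of the 6 genes in 11 clusters, as CPM on a log axis, with UT in blue, BUP in orange, exact 95% Poisson intervals as lines (ends below 0.2 CPM are not drawn) and open circles for 0 UMIs. *Cxcr2* and *Cxcl2* peak in neutrophil-like cells (707 and 23733 CPM in UT), *Cxcl1* in *Thbs1* and *F10* macrophage-like cells (1585 CPM in UT), and *Cxcl5* and *Ppbp* reach at most 144 CPM in the clusters shown.

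*Cxcl3*, a close relative of *Cxcl2*, stood at like levels in neutrophils and in 1 kind of macrophage. The *Thbs1* and *F10* macrophage-like cluster had 2506 CPM in UT (2475 to 2537) and 3090.3 CPM in BUP (3050 to 3131), and the neutrophil-like cluster at 2221 (2142 to 2301) and 3019 CPM (2917 to 3123). The macrophage-like cluster was the higher of the pair in UT, whereas in BUP the intervals overlapped. Near them were the mixed cluster, at 2017 and 1757 CPM, and the small pDC-like cluster, at 1495 and 2578 CPM from 528 and 580 UMIs. C1q macrophage-like cells had 347 and 567 CPM, and CD8 T-like cells 26.8 and 8.09 CPM. *Cxcl3* was patchy from cell to cell: 5 of 622 UT neutrophil-like cells held 15.2% of its UMIs there and 5 of 424 BUP cells 18.1%, against 5.12% and 6.45% for *Cxcl2*. The median neutrophil-like cell had no *Cxcl3* UMI in either library.

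Cells with 1 ligand often held another. After thinning to 1000 UMIs, *Cxcl3* was found in 33.2% of the 503 UT neutrophil-like cells with *Cxcl2* and in 1 of the 37 without it, and in BUP in 35.8% of 363 and in 1 of 13. The share with *Cxcr2*, by contrast, was 46.9% among UT neutrophil-like cells with *Cxcl2* (42.5% to 51.4%) and 40.5% among those without it (24.8% to 57.9%). In BUP the order was the other way, with 47.9% (42.7% to 53.2%) and 7 of 13 cells, so no link was detectable with so few cells lacking the ligand. In *Thbs1* and *F10* macrophage-like cells *Cxcl3* was seen in 46.9% of UT cells with *Cxcl1* and 19.6% of those without it, and in 50.8% and 22.8% of BUP cells. Cells of 1 library share its preparation, and these shares are a description.

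*Cxcl1* (also known as KC), which binds the same receptor, had a different map, with macrophages and tumour cells high and neutrophils low. *Thbs1* and *F10* macrophage-like cells were highest in both libraries, at 1585 CPM in UT (1560.0 to 1609) and 2216 CPM in BUP (2182 to 2250.5). The *Ogn* and *Aspn* tumour-like cells had 830.2 CPM (809 to 852) and 1196 CPM (1181 to 1210.0), and the *Nppb* and *Krt20* tumour-like cells 389.8 and 559 CPM. C1q macrophage-like cells were at 469 and 605 CPM and fibroblast-like cells at 123 and 258 CPM, from 36 and 368 UMIs. Neutrophil-like cells had 128 and 132 CPM from 175 and 145 UMIs, of which 5 cells in each library held 49.1% and 51.0%. CD8 T-like cells gave a background of 8.08 CPM (UT) and 39.5 CPM (BUP).

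Per 100 *Cxcl2* UMIs, neutrophil-like cells held 0.541 *Cxcl1* UMIs in UT and 0.509 in BUP. *Thbs1* and *F10* macrophage-like cells held 13.6 and 14.9, and the *Ogn* and *Aspn* tumour-like cells 243 and 421. As CPM, the *Cxcl2* of the tumour-like cells was not above the CD8 T-like background in UT. Their values may therefore rest on a background count and are not precise. Between the neutrophil-like and the *Thbs1* and *F10* macrophage-like cells the balance differed far beyond its counting error in both libraries. The 14 macrophage markers summed to 1501 and 988 CPM in the neutrophil-like cluster, and all 14 were detected there. Their part in the *Cxcl1* of that cluster was not tested.

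**Figure D2:**
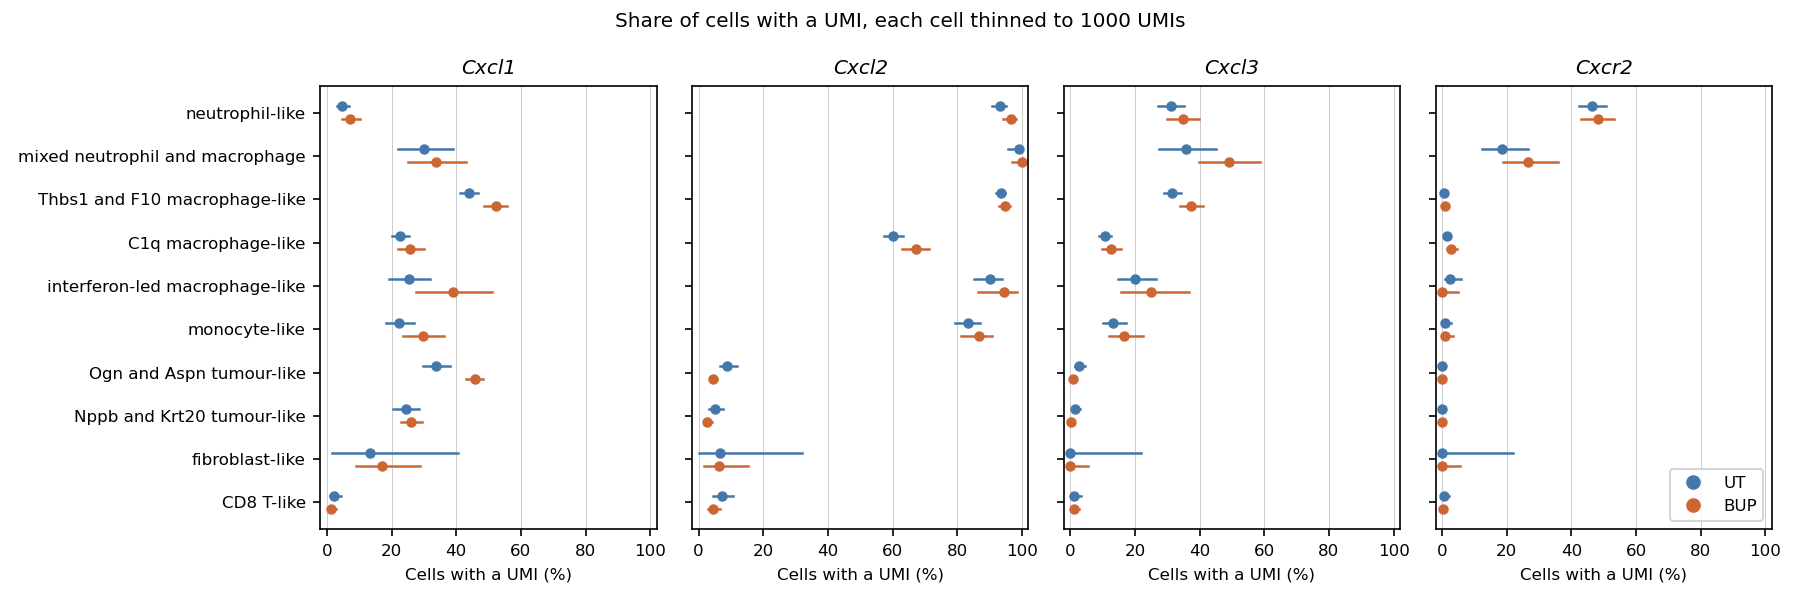
Share of cells with at least 1 UMI of *Cxcl1*, *Cxcl2*, *Cxcl3* and *Cxcr2* after each cell was thinned to 1000 UMIs, in percent, for 10 clusters, with UT in blue, BUP in orange and exact 95% binomial intervals as lines. *Cxcl2* is found in over 90% of neutrophil-like and of *Thbs1* and *F10* macrophage-like cells, *Cxcr2* in 46.5% and 48.1% of neutrophil-like cells, and *Cxcl1* in 33.8% and 45.7% of *Ogn* and *Aspn* tumour-like cells.

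*Cxcl1* in tumour-like cells was spread over many cells. As sequenced, 73.5% of UT and 77.9% of BUP *Ogn* and *Aspn* tumour-like cells had a UMI of it, at medians of 13702 and 13992 UMIs. After thinning to 1000 UMIs the shares were 33.8% (29.6% to 38.2%) and 45.7% (43.2% to 48.3%), over intervals that do not overlap, with 11 and 6 cells left out. In *Nppb* and *Krt20* tumour-like cells the thinned shares were 24.4% and 26.0%, over intervals that overlap. CD8 T-like cells gave thinned shares of 2.19% and 1.41%, and unthinned ones of 4.62% and 4.41%. In *Thbs1* and *F10* macrophage-like cells the thinned share was 43.9% in UT and 52.2% in BUP, and the unthinned one 61.5% and 68.9%.

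*Cxcl5* was rare, and the neutrophil-like cluster held none of its UMIs in either library. At 0 UMIs the cluster allows a level of up to 2.20 CPM in UT and 2.74 CPM in BUP. The *Ogn* and *Aspn* tumour-like cells had 32.7 and 32.0 CPM and the fibroblast-like cells 30.9 and 55.3 CPM, from 9 and 79 UMIs. The tumour-like and fibroblast-like intervals overlapped in UT but not in BUP, where in the fibroblast-like cluster 5 of 64 cells held 87.3% of the UMIs. Interferon-led macrophage-like cells had 6.01 CPM in UT and 144 CPM in BUP, but 117 of the 118 BUP UMIs lay in 1 cell.

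*Ppbp* was seen in a few macrophages and in no neutrophil-like cell, where 0 UMIs set the same upper levels as for *Cxcl5*. It stood at 83.9 and 70.8 CPM in *Thbs1* and *F10* macrophage-like cells and at 39.3 and 24.5 CPM in C1q macrophage-like cells. Only 3.76% and 4.03% of the *Thbs1* and *F10* cells had a UMI of it, against 0.615% and 0.2% of CD8 T-like cells, and 5 cells held 73.8% of its UT and 62.2% of its BUP UMIs. In BUP the pDC-like cluster was highest at 338 CPM, from 76 UMIs in 21 cells. Of 6 platelet markers, *Gp9* and *Gp1bb* were at 0 UMIs in macrophage-like cells and the list summed to 1.77 and 1.52 CPM there. *Pf4*, the neighbouring gene, which encodes another platelet chemokine, stood at 1061 and 799 CPM in macrophage-like cells.

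Between the libraries, the ligands *Cxcl1*, *Cxcl2* and *Cxcl3* were higher in BUP in each of the 4 macrophage-like clusters, by amounts that differed from cluster to cluster. In *Thbs1* and *F10* cells the log2 ratios were 0.48 (0.45 to 0.52) for *Cxcl1*, 0.35 (0.34 to 0.36) for *Cxcl2* and 0.30 (0.28 to 0.33) for *Cxcl3*. In C1q cells they were 0.37 (0.31 to 0.43), 0.88 (0.86 to 0.90) and 0.71 (0.65 to 0.77). For *Cxcl2* and *Cxcl3* the ratio was thus smaller in the cluster with the higher level, and for *Cxcl1* it was larger there. In interferon-led cells *Cxcl1* had 694 CPM in UT and 1388 in BUP (log2 ratio 1.00, 0.88 to 1.12), with 5 of 72 BUP cells holding 46.6% of its UMIs. The monocyte-like cluster had ratios of 0.61, 0.39 and 0.43 for the 3 genes.

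Over all macrophage-like cells together the log2 ratios were 0.80 (0.77 to 0.83) for *Cxcl1*, 0.78 (0.77 to 0.79) for *Cxcl2*, 0.79 (0.77 to 0.81) for *Cxcl3* and 0.88 (0.63 to 1.14) for *Cxcl5*. At a fold of 1.5 these 4 of the 6 members, all tested, were higher and 0 lower, where 3.35% of 12193 genes with at least 50 UMIs were higher and 5.71% lower. The pooled ratios depend on the makeup of the class, because the *Thbs1* and *F10* cells were a larger part of it in BUP. With each cluster given its UT weight in both libraries the ratios were 0.50, 0.52 and 0.40 for *Cxcl1*, *Cxcl2* and *Cxcl3*, and 2 members passed the fold, *Cxcl5* (0.69) and *Cxcr2* (0.73), beside 2.97% of genes higher. After thinning to 1000 UMIs *Cxcl1* was at 0.56, under the fold. Without the 5 cells with most of its UMIs in each library, *Cxcl5* was at -0.85, so the sign of its pooled ratio was set by a few cells.

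*Cxcr2* in macrophage-like cells had 14.9 CPM in UT and 21.6 in BUP, far below its neutrophil level, with a log2 ratio of 0.53 (0.33 to 0.74). In CD8 T-like cells it was at 7.65 and 1.24 CPM. The 12 neutrophil markers, all detected in macrophage-like cells, summed to 1803 and 3413 CPM there, of which *S100a9* made up 644 and 1500.5 CPM. Their part in the *Cxcr2*, *Cxcl2* and *Cxcl3* values of these cells was not tested. In the neutrophil-like cluster itself, the markers summed to 78029 and 112983 CPM, while the immature granule genes *Camp* and *Ltf* had 327 and 212 CPM in UT against 6.38 and 27.4 CPM in BUP.

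**Figure D3:**
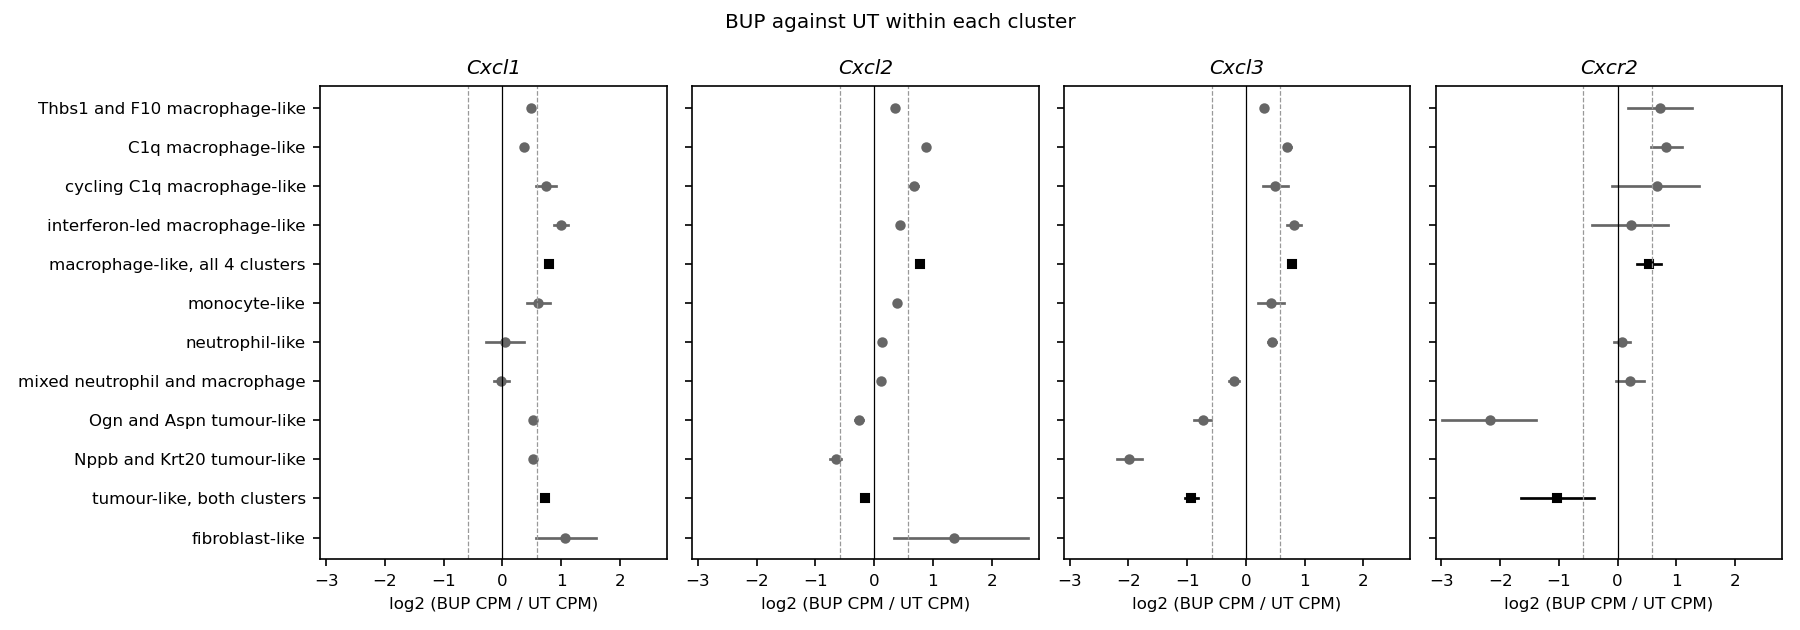
Log2 ratio of BUP over UT CPM for *Cxcl1*, *Cxcl2*, *Cxcl3* and *Cxcr2* in single clusters (circles) and pooled classes (squares), with exact 95% intervals as lines, a solid line at 0 and dashed lines at a fold of 1.5, where at least 50 UMIs were counted. *Cxcl1* lies above 0 in all macrophage-like and tumour-like clusters (0.37 to 1.00), the pooled macrophage-like squares lie at 0.78 to 0.80, and *Cxcl3* lies below 0 in tumour-like cells (-0.93 pooled).

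In neutrophil-like cells the ratios of the members were small: 0.04 (-0.29 to 0.37) for *Cxcl1*, 0.13 for *Cxcl2*, 0.44 (0.37 to 0.51) for *Cxcl3* and 0.08 for *Cxcr2*, so 0 of the 4 members with at least 50 UMIs passed the fold in either direction, against 2.25% of 3963 genes higher and 14.8% lower. Neutrophil-like cells were 10.7% of UT immune cells (9.93% to 11.5%) and 10.5% of BUP immune cells (9.55% to 11.5%). The share of these cells among immune cells thus did not differ beyond its counting error. Among all kept cells they were 8.68% in UT (8.04% to 9.36%) and 6.26% in BUP (5.69% to 6.86%), over intervals that do not overlap. Immune cells themselves were 5803 of the 7163 UT and 4046 of the 6776 BUP cells. The mixed neutrophil and macrophage cluster was 2.12% and 2.87% of immune cells, over intervals that overlap.

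In tumour-like cells *Cxcl1* was higher in BUP, with log2 ratios of 0.53 (0.49 to 0.57) in the *Ogn* and *Aspn* cells, 0.52 (0.47 to 0.57) in the *Nppb* and *Krt20* cells, 0.92 in the cycling tumour-like cluster and 0.72 (0.69 to 0.75) in both non-cycling clusters together. The CD8 T-like background of *Cxcl1* was higher in BUP as well (2.29, from 19 and 127 UMIs). The *Cxcl1* ratio was 2.39 in cycling T-like and 2.09 in migratory dendritic-like cells. It was -0.93 in NK-like cells and, from only 22 and 4 UMIs, -2.21 (-4.21 to -0.65) in regulatory and gamma-delta T-like cells. *Cxcl5* was equal in *Ogn* and *Aspn* cells within its interval (-0.03, -0.25 to 0.18) and higher in *Nppb* and *Krt20* cells (1.88, 1.47 to 2.32), where 5 BUP cells held 78.2% of its UMIs. Over both clusters 2 members were higher past the fold (*Cxcl1* and *Cxcl5*, 0.78) and 2 lower (*Cxcl3*, -0.93, and *Cxcr2*, -1.02), beside 2.01% of 12921 genes higher and 3.87% lower. The *Cxcr2* value is that of a background count, from 45 UMIs in each library, and its sign differed between the *Ogn* and *Aspn* cells (-2.18) and the *Nppb* and *Krt20* cells (0.52, 10 and 21 UMIs). With UT weights for the clusters *Cxcl1* was at 0.52, under the fold, beside 1.15% of genes higher. After thinning to 1000 UMIs both higher members were under the fold, *Cxcl1* at 0.55 and *Cxcl5* at 0.50. *Cxcl3* lay in few tumour-like cells: 5 cells held 56.4% of its UT and 74.5% of its BUP UMIs in the *Ogn* and *Aspn* cluster, and 86.4% and 93.5% in the *Nppb* and *Krt20* cluster. In cycling tumour-like cells it was higher in BUP (0.85). Its ratio in lymphocytes had no single direction, at -1.73 in CD8 T-like, 0.63 in NK-like and 5.68 in cycling T-like cells, the last from 3 and 225 UMIs. The 14 macrophage markers summed to 464 and 320.3 CPM in tumour-like cells, with all 14 detected. Their part in the values of *Cxcl3* and *Cxcr2* there was not tested.

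In fibroblast-like cells 3 members had at least 50 UMIs, and all 3 were higher past the fold, at 1.06 (0.57 to 1.60) for *Cxcl1*, 1.37 (0.33 to 2.62) for *Cxcl2* and 0.84 (-0.16 to 2.02) for *Cxcl5*, beside 13.6% of 5286 genes higher and 18.2% lower. The interval of *Cxcl5* includes 0. With 15 UT cells, of which 5 held 94.4% of the 36 *Cxcl1* UMIs, these values rest on very few cells. After thinning, *Cxcl1* was found in 2 of 15 UT cells and 11 of 64 BUP cells. The 14 macrophage markers summed to 1348 and 1663 CPM in the fibroblast-like cells. Of these *Thbs1* was lower in BUP (834 and 537 CPM) and the others were higher, among them *Inhba* (425 and 599 CPM), *C1qa* (6.86 and 89.0 CPM) and *Apoe* (10.3 and 148 CPM), with *Adgre1*, *Cd68*, *Fcgr1*, *Ms4a7* and *Mrc1* at 0 in UT. Their part in these ratios was not tested.

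The genes that are known to act around these chemokines were followed with 48 further genes in 10 lists. In macrophage-like cells 41 of them had at least 50 UMIs, 8 were higher past the fold and 0 lower, beside 3.35% and 5.71% of all genes tested, and their median log2 ratio was 0.21, against -0.09 over all 12193 genes. Of the cytokines known to induce the ligands, 4 of 5 tested were higher: *Il1a* (148 and 247 CPM), *Il1b* (1248.5 and 1897 CPM), *Il6* (4.97 and 12.5 CPM) and *Csf3* (1.27 and 6.33 CPM). *Tnf* had 328 CPM in UT and 447 in BUP (0.45) and did not pass. The chemokines *Ccl3* (0.60) and *Ccl4* (0.80), the interleukin-1 receptor gene *Il1r1* (1.06) and *Zc3h12a* (0.63), which encodes an RNase that degrades such transcripts, were the other 4.

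None of the 8 NF-kappaB subunit and feedback genes passed in macrophage-like cells, and the feedback inhibitor gene *Nfkbia* had the largest ratio of them, 0.52 (0.50 to 0.54). With UT weights for the clusters, 4 of the 41 genes passed, *Ccl4*, *Csf3*, *Il1r1* and *Il6*, beside 2.97% of all genes higher, 0 were lower, beside 2.61%, and the median was 0.09, against -0.04 over all genes. In neutrophil-like cells 2 of 38 tested genes were higher, *Zfp36l1* (0.72) and *Nfkbib* (0.62), and 2 lower, *Pf4* (-1.66) and *Grk6* (-0.80), beside 2.25% and 14.8% of all genes tested there. The other attractant receptors of neutrophils, among them *Ccr1* (-0.15), *Fpr1* (0.32) and *C5ar1* (0.09), did not pass there, and neither did the adhesion gene *Itgam* (0.00).

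In tumour-like cells 2 of 41 tested genes were higher and 7 lower, beside 2.01% and 3.87% of all genes, and with UT weights for the clusters 3 were higher and 11 lower, beside 1.15% and 4.13%. The higher ones were *Csf3* (0.483 and 1.85 CPM, from 10 and 78 UMIs) and *Il6* (0.483 and 0.949 CPM), joined by *Csf2* with UT weights. Among the lower ones were *Il1b* (73.0 and 45.0 CPM), *Ccl3* (29.7 and 18.2 CPM) and *Ccr1* (12.1 and 6.57 CPM), genes at far higher levels in macrophage-like cells. In fibroblast-like cells 6 of 19 tested genes were higher and 0 lower, beside 13.6% and 18.2% of all genes, with *Relb* at 1.26 from 8 and 94 UMIs.

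Over the 20 clusters with at least 50 cells in each library, 40 profiles in total, which leave out the fibroblast-like cells, the genes most like each member were named by Pearson's r of log2(CPM + 1) among 13341 genes. *Cxcl2* was followed most closely by *Nlrp3* (r = 0.98), *Ets2*, *Tlr2*, *Tarm1* and *Sirpb1c*, and *Cxcr2* by *Hdc* (0.96), *Il36g*, *S100a9*, *Asprv1* and *Mirt2*. *Cxcl3* was most like *Cd14* (0.93), *Cxcl2* (0.91), *Plin2*, *Il1a* and *Clec4d*. *Cxcl1* stood apart from these, with *Pdpn* (0.89), *Ctsl*, *Lrp1*, *Fam20c* and *Plk2*. The values for *Cxcl5* (*9630028H03Rik*, 0.74) and *Ppbp* (*Gm36172*, 0.84) were lower and rest on few UMIs. The profiles share 2 libraries and related cell types, so r is given as a description.

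**Figure D4:**
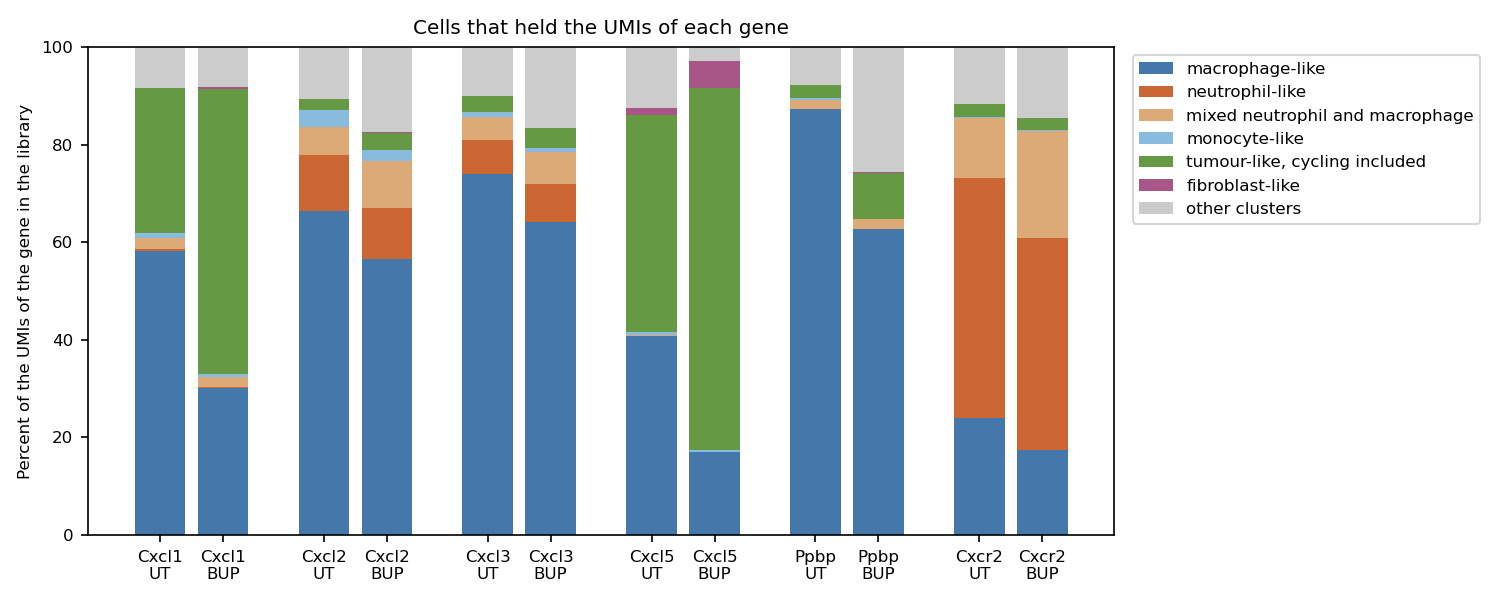
Percent of the UMIs of each gene in a library that lay in macrophage-like, neutrophil-like, mixed, monocyte-like, tumour-like (cycling ones included), fibroblast-like and other clusters, as stacked bars that sum to 100. Macrophage-like cells held 58.2% of *Cxcl1* UMIs in UT and 30.2% in BUP, where the non-cycling tumour-like cells alone held 53.7%.

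Counted over all kept cells, *Cxcl2* was the largest pool, with 279788 UMIs in UT and 271080 in BUP. Macrophage-like cells held 66.4% and 56.6% of it and neutrophil-like cells 11.6% and 10.5%. *Cxcl1* had 43603 and 70355 UMIs, and the part in tumour-like cells went from 25.8% to 53.7% while that in macrophage-like cells went from 58.2% to 30.2%. These cells themselves went from 13.3% to 32.6% of kept cells for tumour-like and from 39.4% to 20.9% for macrophage-like, and the sorted mixture sets those shares in part. Of the *Cxcr2* UMIs, neutrophil-like cells held 49.2% and 43.4% and the mixed neutrophil and macrophage cluster 12.2% and 22.1%. Macrophage-like cells, which were many, held 24.0% and 17.4%.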

How the data were processed

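Single-cell RNA of 2 libraries (10x 5′ v2 chemistry) was analysed. The authors counted UMIs per gene and barcode with Cell Ranger (8.0.1 in the submitters' processing notes) on GRCm39, and the deposited counts are whole numbers without normalization. Groups were taken from the sample labels. The members and gene lists were chosen with earlier results of these data known. A barcode counted as a cell above 100 UMIs if mitochondrial genes held under 20% of them. Clustering used Seurat 5.3.0 in R 4.3.3, on both libraries together without integration (log-normalized counts, 2000 variable genes, 20 principal components, resolution 0.5). Clusters with *Ptprc* in at least 30% of cells were clustered again, and doublets were not removed. Clusters are rebuilt, not the authors' own. Python 3.11.15 gave the sums (pandas 2.3.3), the exact 95% intervals (scipy 1.17.1), the thinning (numpy 2.4.6), doublet scores (Scrublet in scanpy 1.11.5) and plots (matplotlib 3.10.9). Ratios were taken for genes with at least 50 UMIs in a class, apart from a few printed with their lower counts, and a gene passed at a fold of 1.5. A count of 0 was read as allowing 3 counts. All 6 members and the list genes were named, with the 5 genes most like each member among genes with at least 200 UMIs. The calculation was tested on simulated data. These data were drawn with the counting error that the intervals assume and without spread between cells. The simulation therefore cannot show how the intervals perform for genes held by few cells. Alternatives changed the cell filter, clustering, scaling, depth, doublets and the highest cells. Cluster weights, and the counts of genes passing under them or without the highest cells, were alternatives chosen after seeing the data. Gene positions are from the GENCODE annotation of GRCm39, and promoters from RefSeq on GRCm38.p6.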

Additional observations from a re-analysis of the deposited data

Results flagged for a closer look

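*Cxcl3* moved in opposite directions past the fold in 2 cell classes, at a log2 ratio of BUP over UT of 0.79 in macrophage-like cells and -0.93 in tumour-like cells. The difference between the classes was not tested. With clusters at their UT weights (chosen after seeing the data) the macrophage-like ratio was 0.40, under the fold. By cluster it was 0.30 in *Thbs1* and *F10* cells, 0.50 in cycling C1q cells, 0.71 in C1q cells and 0.82 in interferon-led cells. The pooled tumour-like level was 60.7 and 31.9 CPM, above that of CD8 T-like cells (26.8 and 8.09 CPM). In the *Nppb* and *Krt20* cells alone it was 49.6 and 12.5 CPM. That BUP level lay close to the CD8 T-like background, whose interval was 5.28 to 11.9 CPM. In each tumour-like cluster and library 5 cells held 56.4% to 93.5% of the UMIs. In the cycling tumour-like cluster, which is not in that class, the ratio was 0.85.

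The barcodes left out for their mitochondrial share, which no comparison used, held *Cxcl3* at 92.95 CPM in UT (55 UMIs, 393 barcodes) and 191 CPM in BUP (125 UMIs, 445 barcodes), above the UT level with intervals that do not overlap. *Cxcl2* in the same barcodes was at 2339 and 1858 CPM.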

How the results depend on the processing

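Of 92 alternative values, 55 stayed within the counting interval or 1.5 times the count reported, 37 moved further, and 75 of the 76 log2 ratios among them kept their sign. Outside these, *Cxcl5* in macrophage-like cells turned from 0.88 to -0.85 without the 5 highest cells, and *Ppbp* there from 0.04 to -0.23 with clusters at their UT weights. With clusters at their UT weights (chosen after seeing the data), *Cxcl1*, *Cxcl2* and *Cxcl3* in macrophage-like cells were at 0.50, 0.52 and 0.40, *Cxcl1* and *Cxcl5* in tumour-like cells at 0.52 and 0.59, and the members higher past the fold were 2 in macrophage-like and 1 in tumour-like cells. Thinned to 1000 UMIs, the macrophage-like ratios were 0.56, 0.59 and 0.62, the tumour-like ones 0.55 for *Cxcl1* and 0.50 for *Cxcl5*, and *Cxcl5* in fibroblast-like cells -1.09, from 1 and 2 UMIs. Scaling by the median ratio of genes gave 0.89, 0.87 and 0.88 in macrophage-like cells, 0.77 for *Cxcl1* in tumour-like and 0.23 for *Cxcl2* in neutrophil-like cells. With a stricter cell filter *Cxcl2* was at 0.72 and *Cxcl3* at 0.84 in macrophage-like cells, *Cxcl2* at 0.0396 in neutrophil-like cells, and *Cxcl1* and *Cxcl5* at 0.83 and 0.97 in tumour-like cells. Those tumour-like values were 0.84 and 0.98 with 30 principal components, and *Cxcl5* was at 1.00 without likely doublets. *Cxcl2* was at 0.73 in macrophage-like cells at resolution 1.0, and *Cxcl3* at 0.82 with the members kept among the variable genes. Without the 5 highest cells, *Cxcl1* and *Cxcl3* were both at 0.76 in macrophage-like cells, where 1 member, *Cxcl5*, was then lower past the fold. In fibroblast-like cells *Cxcl1* was then at 3.58, from 2 UT and 165 BUP UMIs, and was the 1 member higher past the fold. *Cxcl2* and *Cxcl5* had no UT UMIs left there, against 22 and 10 in BUP, and so gave no ratio. The share of all genes past the fold was not taken without the highest cells. Thinned to 2000 UMIs, *Cxcl2* was in 96.8% and 99.1% and *Cxcr2* in 66.9% and 73.5% of UT and BUP neutrophil-like cells. The *Cxcr2* ratio in neutrophil-like cells moved under no alternative. The causes were not tested. No paired analysis was possible because each group had 1 library, and for the same reason no replicate could be left out.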
